A study of Mus musculus with 4 samples.

Results

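The T cell receptor beta, gamma and delta chain genes were examined in tumour-infiltrating T cells, by taking every gene of the deposited table whose symbol marks it as a variable (V), diversity (D), joining (J) or constant (C) segment of those 3 loci. This gave 40 genes of the 21146 in the table, 26 of the beta locus, 9 of the gamma locus and 5 of the delta locus. The annotation lists 79 such segments, and the other 39, among them every D and J segment, were not analysed here. The cells came from tumours of C57BL/6 mice at day 21 after inoculation. One group was wild type and the other carried the MAP4K1-/- genotype, a knockout of the kinase HPK1, with 2 libraries in each group. Map4k1 encodes this kinase, which acts as a brake on signals from the T cell receptor. The labels name neither the tumour, the knockout allele, the age or sex of the mice nor the sort that yielded the T cells, and leave unstated whether each library had its own mice. Every p below thus rests on the variation of these 4 libraries alone, which may be of technical origin.

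A T cell builds its receptor by joining V, D and J segments in the thymus into a single rearranged gene, which is spliced to a constant segment. Most T cells pair a beta chain with an alpha chain, and a smaller lineage pairs a gamma chain with a delta chain. The beta V segment used by a cell passes to all its daughters, so the share of each V segment in a population reflects which clones it holds. Gamma loci are also rearranged in many alpha beta T cells, so gamma transcripts alone do not count gamma delta cells, whereas the delta locus lies within the alpha locus and is deleted from a chromosome on which alpha segments join. In bulk RNA, fewer cells that use a segment and less of its RNA per cell cannot be told apart.

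The segments of a locus resemble each other, and the sequences that separate the genes named most often here are shown first, so that a reader can see how much of each gene a read can place. The gamma locus lies on chromosome 13 of the mouse build GRCm38 and holds several clusters, each with its own constant gene. Tcrg-C2, on the minus strand at chr13:19304649-19307551, and Tcrg-C1, on the plus strand at chr13:19214103-19217024, were 97.4% identical over 500 coding bases, with 13 mismatches. Tcrg-C4, on the plus strand at chr13:19344558-19352756, was 80.4% identical to Tcrg-C2. Tcrg-C3 matched Tcrg-C2 at 97.0%. The first 150 coding bases of 3 of them follow, as in the GENCODE M21 transcripts. Capitals in Tcrg-C2 and Tcrg-C1 mark the 4 bases at which that pair differs, and capitals in Tcrg-C4 mark the 16 bases at which it differs from Tcrg-C2.
Tcrg-C2: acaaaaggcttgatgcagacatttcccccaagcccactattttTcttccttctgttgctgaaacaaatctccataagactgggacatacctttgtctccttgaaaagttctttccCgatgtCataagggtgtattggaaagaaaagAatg
Tcrg-C1: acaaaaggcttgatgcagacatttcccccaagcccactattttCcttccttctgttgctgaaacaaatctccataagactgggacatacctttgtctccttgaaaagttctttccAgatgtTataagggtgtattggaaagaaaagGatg
Tcrg-C4: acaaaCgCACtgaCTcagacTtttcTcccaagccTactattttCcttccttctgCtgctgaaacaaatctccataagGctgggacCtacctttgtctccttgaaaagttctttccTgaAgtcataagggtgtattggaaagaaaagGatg

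The gamma V segment with the highest level was Trgv2, on the minus strand at chr13:19336573-19337167. Its closest relative among the segments in the table was Tcrg-V1, with 15 mismatches over 347 bases. The last 150 coding bases of each are shown with the 7 differing bases in capitals.
Trgv2: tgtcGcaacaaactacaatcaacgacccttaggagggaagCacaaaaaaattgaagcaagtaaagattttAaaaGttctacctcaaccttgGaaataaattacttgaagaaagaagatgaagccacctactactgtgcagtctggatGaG
Tcrg-V1: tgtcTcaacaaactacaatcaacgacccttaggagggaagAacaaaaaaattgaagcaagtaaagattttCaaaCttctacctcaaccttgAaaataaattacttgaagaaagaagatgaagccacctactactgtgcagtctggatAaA

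The beta locus lies on chromosome 6. Its V segments fall into families, and 2 segments whose share of the repertoire is described below have close relatives next to them. Trbv12-2, at chr6:41118851-41119364 on the plus strand, shared 88.2% of its coding bases with Trbv12-1. The last 150 coding bases of this pair hold 14 differing bases, in capitals.
Trbv12-2: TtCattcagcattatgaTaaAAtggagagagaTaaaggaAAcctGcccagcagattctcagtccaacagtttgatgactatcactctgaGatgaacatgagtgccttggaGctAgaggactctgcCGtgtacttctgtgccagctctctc
Trbv12-1: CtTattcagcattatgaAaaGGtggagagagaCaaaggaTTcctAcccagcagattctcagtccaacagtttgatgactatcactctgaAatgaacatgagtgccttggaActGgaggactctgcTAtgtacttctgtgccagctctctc

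Trbv13-2, at chr6:41121396-41121832 on the plus strand, shared 90.6% of its coding bases with Trbv13-3, and 88.7% with Trbv13-1. In the next pair of 150-base ends, capitals mark the 16 bases at which Trbv13-2 and Trbv13-3 differ.
Trbv13-2: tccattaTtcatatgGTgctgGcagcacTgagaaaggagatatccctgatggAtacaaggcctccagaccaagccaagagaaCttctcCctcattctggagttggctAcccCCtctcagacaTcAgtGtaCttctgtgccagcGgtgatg
Trbv13-3: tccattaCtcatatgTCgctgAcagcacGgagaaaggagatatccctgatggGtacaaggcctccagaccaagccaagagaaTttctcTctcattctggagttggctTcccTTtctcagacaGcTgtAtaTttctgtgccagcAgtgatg

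Other beta V segments named below have no relative that close: Trbv15 was 72.2% identical to Trbv16, its nearest, and Trbv29 was 65.5% identical to Trbv13-2. The last 48 coding bases of 4 of these segments are printed to show where a V segment ends and the receptor's CDR3 loop, the part that is unique to a clone, begins. Capitals mark the codon of the conserved cysteine at that boundary. The 11-base stretch found in the largest number of beta V segments within their last 40 bases, read on the coding strand only, was TCTGTGCCAGC. It includes that codon and occurred in 11 of the 22 segments searched (50%), Trbv14 and Trbv26 among them.
Trbv29: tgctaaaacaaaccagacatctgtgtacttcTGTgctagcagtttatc
Trbv15: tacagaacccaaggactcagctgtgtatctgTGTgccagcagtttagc
Trbv14: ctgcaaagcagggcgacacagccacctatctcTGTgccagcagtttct
Trbv26: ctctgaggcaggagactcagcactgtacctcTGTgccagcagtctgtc

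The constant genes of the beta chain, Trbc1 at chr6:41538218-41539881 and Trbc2 at chr6:41546730-41548352, were nearly the same gene. They differed at 23 of 518 coding bases and not at all over the first 150, so a read from that stretch cannot be placed in either, and their split below is uncertain. Levels are FPKM (fragments per kilobase, divided by the size of the library), as the authors deposited them, and fold changes are knockout minus wild type on the scale of log2(FPKM + 1), which understates the change of low genes. A gene entered the two-sided limma test if 2 or more of the 4 libraries reached 1 FPKM, and p-values of all 11947 genes tested were adjusted together by Benjamini-Hochberg, with 0.05 as the threshold.

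Across the 4 libraries, regular steps among low values placed the scale near 20300000 to 23400000 fragments. Map4k1 (chr7:28982050-29003279) measured 48.9 and 41.1 FPKM in wild type against 20.6 and 26.5 in the libraries labelled knockout, a fold change of -0.91 with SE 0.15 and a limma adjusted p of 0.0134. The knockout libraries thus kept some transcript of the targeted gene, and without knockout library 1 the adjusted p was 0.0634. The labelled T cell identity was matched by Cd3e, a chain of the CD3 complex, at 142 to 153 FPKM in every library. Markers of other lineages were mixed. Cd79a of B cells was at most 0.149 FPKM, and Lyz2 and Adgre1 of myeloid cells at most 0.0491 and 0.0449. Cd79b measured 3.93 to 4.81 FPKM, Cd68 2.39 to 3.98 and Pecam1 12.2 to 16.5 over the 4 libraries, and Col1a1 of fibroblasts reached 1.65 in wild-type library 2.

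Receptor segments were lower or not called in the knockout libraries, and none was called higher. Of the 40, 31 passed the filter on low values, and 10 of those were lower with a limma adjusted p under 0.05. Over all tested genes, 28.4% were called, 13.0% lower and 15.4% higher. The 10 were all 5 tested gamma genes, 4 of 22 beta V segments and 1 of the 2 beta constant genes, while neither of the 2 tested delta V segments was called. The median fold change was -1.20 over the 5 gamma genes and -0.21 over the 22 beta V segments, against 0.04 over all tested genes. In 17 of the 31 both knockout libraries lay under both wild-type libraries and in 1 both lay above, with 13 overlapping. For all tested genes these shares were 31.4% under and 38.6% above, 70.0% in all.

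**Figure D1:**
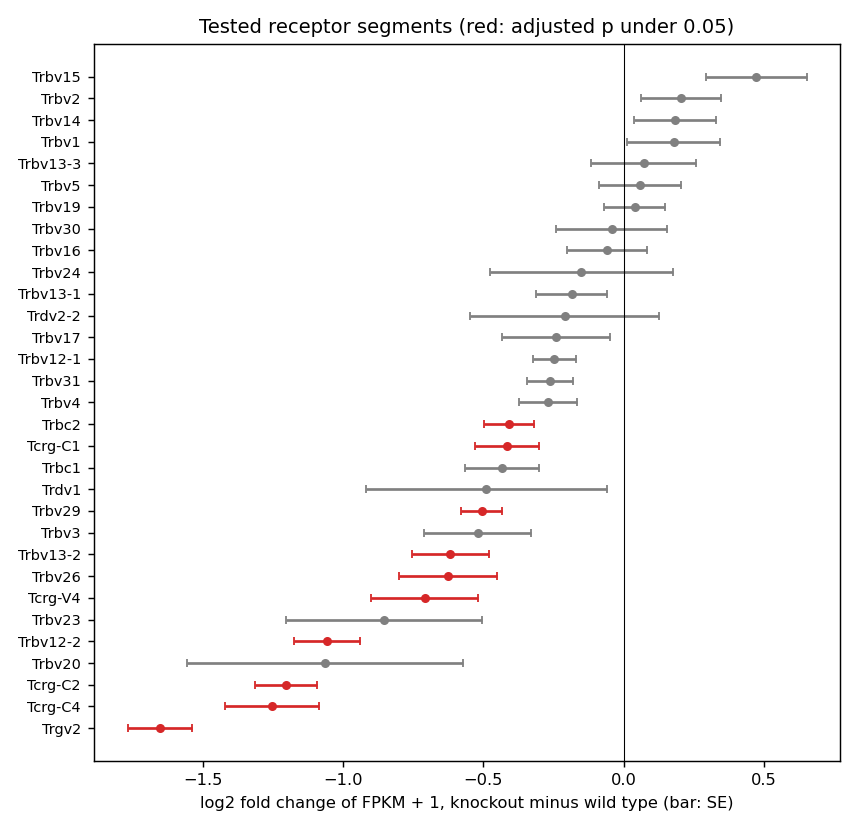
Fold change of each of the 31 tested segments on the log2(FPKM + 1) scale, knockout minus wild type, with its standard error as a bar and the 10 past an adjusted p of 0.05 in red. Trgv2 lies lowest at -1.65 and Trbv15 highest at 0.47.

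The number of calls depended on the libraries and on the scaling. Without knockout library 1, 4 of the 31 were called (12.9%), against 4.85% of all tested genes, and of the 10 only Trgv2, Tcrg-C2, Tcrg-C4 and Trbv12-2 kept an adjusted p under 0.05 when any one of the 4 libraries was left out. With values scaled to equal summed beta constant FPKM, 4 members were lower and 5 higher, where 46.2% of all tested genes were called higher and 5.17% lower and their median was 0.41 against 0.04 as deposited.

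The gamma chain showed the widest difference. Trgv2, a gamma variable segment, measured 49.0 and 58.8 FPKM in wild type against 15.8 and 17.0 in knockout. Both knockout values lay far under both wild-type values, and the means of 53.9 ± 6.94 and 16.4 ± 0.823 (SD, n = 2 each) stood 3.29-fold apart. Its fold change was -1.65 (SE 0.11), with a limma adjusted p of 0.00194. An estimated 259 and 277 fragments lay behind the wild-type values and 80 and 88 behind the knockout values.

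Tcrg-C2, the constant gene of the same cluster and on the same strand as Trgv2, measured 30.8 and 36.3 FPKM in wild type against 14.3 and 13.6 in knockout. The genotypes did not overlap, and the wild-type mean was 2.40-fold the knockout mean. Its fold change was -1.20 (SE 0.11), with a limma adjusted p of 0.00368. Given the near identity of the Tcrg-C2 and Tcrg-C1 sequences above, how reads were divided between these 2 genes is uncertain. Their sum does not depend on that division, unless reads matching both were left out, which the sources used here do not say. Tcrg-C4, the constant gene of another cluster, measured 4.29 and 5.44 FPKM in wild type against 1.66 and 1.25 in knockout, 3.34-fold lower in the mean. Its fold change was -1.25 (SE 0.17), with a limma adjusted p of 0.00864, and 0.0564 when every gene of the table was tested without a filter. It rested on an estimated 68 and 80 fragments in wild type against 27 and 21 in knockout.

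Tcrg-C1 differed much less than the other tested constant genes of its locus. It measured 12.4 and 12.6 FPKM in wild type against 9.96 and 8.40 in knockout, without overlap. Its fold change of -0.41 (SE 0.11) had a limma adjusted p of 0.0477, and this call was lost in 12 of 16 alternatives, among them the omission of any single library, with adjusted p from 0.101 to 0.250. Tcrg-V4, a gamma V segment at chr13:19184974-19185506, measured 2.31 and 3.52 FPKM in wild type against 1.39 and 1.34 in knockout, with a fold change of -0.71 (SE 0.19) and a limma adjusted p of 0.0451. Those values rested on an estimated 9 and 12 fragments against 5 and 5. The exact 95% Poisson intervals of wild-type library 1 and knockout library 1, from 4.12 to 17.1 and from 1.62 to 11.7 fragments, overlapped, and such intervals cover counting error only. The call was also lost in 12 of 16 alternatives, for example without wild-type library 2 (0.0926), knockout library 1 (0.162) or knockout library 2 (0.151).

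The other 4 gamma genes were close to the limit of detection and were not tested. Tcrg-V1 measured 2.16 and 0.423 FPKM in wild type against 0.413 and 0 in knockout, from at most 6 fragments. Tcrg-C3 measured 0.340 FPKM in wild-type library 1 and 0.112 in knockout library 2, and was listed at 0 in the others. Tcrg-V3 and Tcrg-V6 reached at most 0.494 and 0.832 FPKM in any library, from 1 and 2 fragments. A value of 0 allows up to 3 fragments, as a one-sided 95% limit.

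**Figure D2:**
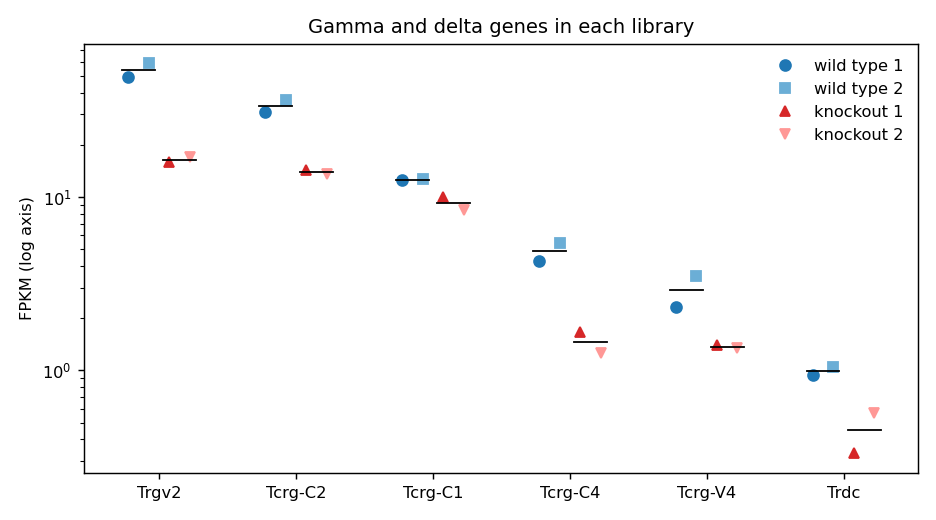
FPKM on a log axis of the gamma genes that were tested and of Trdc in each of the 4 libraries, with the mean of each genotype as a line. Both knockout libraries lie under both wild-type libraries for every gene shown, from Trgv2 at 15.8 and 17.0 against 49.0 and 58.8 FPKM to Trdc at 0.332 and 0.571 against 0.943 and 1.04.

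Summed over the 4 gamma constant genes, the level was 47.9 and 54.4 FPKM in wild type against 25.9 and 23.4 in knockout, 2.07-fold lower in the mean. The make-up of that sum differed as well, although the division of reads between Tcrg-C2 and Tcrg-C1 is uncertain, as said above. Tcrg-C2 supplied 64.3% and 66.8% of it in wild type against 55.1% and 58.2% in knockout. Tcrg-C1 supplied 26.0% and 23.2% in wild type against 38.4% and 35.9% in knockout, and Tcrg-C4 supplied 8.97% and 10.0% in wild type against 6.42% and 5.35% in knockout. The genotypes did not overlap in any of these shares, but with 2 libraries in each an exact two-sided permutation test of a single value cannot give a p under 0.333, so none was tested. Trgv2 also stood lower relative to Tcrg-C2, at 1.59 and 1.62 times its FPKM in wild type against 1.11 and 1.25 times in knockout.

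The delta constant gene Trdc (chr14:54142851-54148868, plus strand), the segment that every delta chain carries, was low in every library. It measured 0.943 and 1.04 FPKM in wild type against 0.332 and 0.571 in knockout, so the genotypes did not overlap. It reached 1 FPKM in a single library and was therefore not part of the test. Its long transcript meant that these levels still rested on an estimated 73 and 76 fragments in wild type against 27 and 48 in knockout. The exact 95% Poisson intervals were 57.2 to 91.8 and 59.9 to 95.1 fragments in wild type against 17.8 to 39.3 and 35.4 to 63.6 in knockout. The interval of knockout library 2 thus overlapped those of both wild-type libraries, and that of knockout library 1 overlapped neither. When every gene was tested without a filter, Trdc had a fold change of -0.46 (SE 0.11) and a limma adjusted p of 0.114. As a share of Trdc plus the alpha constant gene Trac, it made up 0.311% and 0.323% in wild type against 0.0783% and 0.143% in knockout. Part of that difference lay in Trac, described below.

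Delta V segments rested on a handful of fragments. Trdv1 measured 2.51 and 4.95 FPKM in wild type against 3.79 and 1.21 in knockout, with a limma adjusted p of 0.423. Trdv2-2 measured 0.916 and 2.12 in wild type against 1.70 and 0.656 in knockout, with an adjusted p of 0.668 by limma. The genotypes overlapped in both. Trdv5, on the minus strand at chr14:54148662-54149294, overlaps the end of Trdc. The strand setting of the counting is not given in the sources used here, so reads from the stretch that the 2 genes share cannot be told apart. It measured 0.964 and 1.64 FPKM in wild type against 0.776 and 0.499 in knockout. Trdv4 was listed at 0 except in wild-type library 2, at 0.530 FPKM. Together these 4 delta V segments held an estimated 12 and 22 fragments in wild type against 14 and 6 in knockout. A difference in their use was thus not detectable at this depth. V segments listed under alpha locus symbols were not counted here.

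Beta chain transcripts were far more abundant than gamma or delta transcripts. Trbc2 measured 1015 and 915 FPKM in wild type against 704 and 748 in knockout, without overlap, with a fold change of -0.41 (SE 0.09) and a limma adjusted p of 0.0270. That p was 0.0588 without wild-type library 1, 0.192 without knockout library 1 and 0.114 without knockout library 2. Trbc1 measured 563 and 435 FPKM in wild type against 368 and 365 in knockout. Its wild-type values stood far apart, and its fold change of -0.43 (SE 0.13) did not pass, with a limma adjusted p of 0.0624, or 0.0157 without wild-type library 2. Trbc2 made up 64.3% and 67.8% of the summed beta constant level in wild type against 65.7% and 67.2% in knockout, so the genotypes overlapped in the split between the clusters.

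Trac, at chr14:54220521-54224206, the constant gene of the partner chain, moved the other way. It measured 302 and 322 FPKM in wild type against 423 and 399 in knockout, a fold change of 0.40 (SE 0.08) with a limma adjusted p of 0.0220. That p was 0.177 without knockout library 1 and 0.103 without knockout library 2. The summed beta constant level was 5.22 and 4.19 times Trac in wild type against 2.53 and 2.79 times in knockout. Gamma constant genes made up 2.94% and 3.87% of the summed gamma and beta constant level in wild type against 2.36% and 2.06% in knockout. Because the beta constant level was itself lower, this share differed 1.54-fold in the mean, less than the summed gamma level.

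Among the 24 beta V segments, 22 were tested. Trbv12-2 differed most among those past the threshold, measuring 107 and 88.6 FPKM in wild type against 48.7 and 44.0 in knockout. The knockout values were close to each other and under both wild-type values, with a 2.11-fold difference in the means. Its fold change was -1.06 (SE 0.12), with a limma adjusted p of 0.00596. Its close relative Trbv12-1 measured 68.6 and 70.2 FPKM in wild type against 56.9 and 59.7 in knockout, and its adjusted p of 0.0623 by limma did not pass.

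The other called beta V segments differed by less. Trbv29 (chr6:41271394-41271881) measured 152.5 and 147 FPKM in wild type against 106 and 104 in knockout, with a fold change of -0.51 (SE 0.07) and a limma adjusted p of 0.00993, or 0.0818 and 0.0759 without knockout library 1 or 2. Trbv13-2 measured 87.1 and 105.6 FPKM in wild type against 68.4 and 56.4 in knockout, a fold change of -0.62 (SE 0.14). Its limma adjusted p of 0.0282 became 0.0703 without wild-type library 2, 0.0621 without knockout library 1 and 0.124 without knockout library 2. Trbv26 (chr6:41227505-41227993) measured 32.7 and 42.3 FPKM in wild type against 27.0 and 20.9 in knockout, a fold change of -0.63 (SE 0.17). Its limma adjusted p of 0.0485 became 0.129, 0.0739 and 0.183 without those same libraries in turn. In all 3 segments both knockout libraries lay under both wild-type libraries.

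A single tested beta V segment had both knockout libraries above both wild-type libraries. Trbv15 (chr6:41141188-41141658) measured 54.5 and 78.5 FPKM in wild type against 96.2 and 86.4 in knockout. Its fold change of 0.47 (SE 0.18) did not pass, with a limma adjusted p of 0.104, and the value depended on the wild-type libraries. It was 0.73 (adjusted p 0.0187 by limma) without wild-type library 2 and 0.21 (0.178) without wild-type library 1. Trbv20 was low in only 1 knockout library, at 3.90 FPKM, against 13.7 in the other and 16.4 and 17.1 in wild type, and its adjusted p was 0.158 by limma.

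The remaining abundant segments did not pass the test with all libraries. Trbv3 measured 64.9 and 76.0 FPKM in wild type against 40.2 and 58.8 in knockout (limma adjusted p 0.0962), with a fold change of -0.52 that became -0.79 (0.0432) without knockout library 2 and -0.25 (0.348) without knockout library 1. Trbv1, Trbv5, Trbv13-1, Trbv13-3, Trbv14 and Trbv16 overlapped between genotypes, with fold changes from -0.19 to 0.18 and limma adjusted p-values from 0.311 to 0.799. Single libraries moved some of them. Without wild-type library 1, limma gave Trbv1 0.42 (adjusted p 0.0339) and Trbv13-1 -0.35 (0.0469), and without wild-type library 2 it gave Trbv14 0.39 (0.0363). Without the other wild-type library those 3 values were -0.07, -0.02 and -0.02. The 2 beta V segments below the filter, Trbv12-3 and Trbv21, reached at most 0.431 and 0.799 FPKM.

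The shares of the segments in the summed beta V level describe the repertoire apart from its total. That total was 1259 and 1397 FPKM in wild type against 1166 and 1161 in knockout. Trbv29 held the highest share in both wild-type libraries, at 12.1% and 10.5%, and 9.08% and 8.99% in knockout. Trbv14 held the highest share in both knockout libraries, at 10.4% and 11.1%, against 7.60% and 9.14% in wild type. No segment dominated: the top share of 10.4% to 12.1% overlapped between genotypes.

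Trbv12-2 had the largest change in share. It held 8.53% and 6.34% of the beta V level in wild type against 4.18% and 3.79% in knockout. Trbv13-2 held 6.92% and 7.56% in wild type against 5.87% and 4.86% in knockout. Together the Trbv12 and Trbv13 families held 32.8% and 33.2% in wild type against 28.9% and 27.7% in knockout, although Trbv13-1 (means 8.85% in both genotypes) and Trbv13-3 (4.25% and 5.05%) overlapped between genotypes. Trbv15 went the other way, with 4.33% and 5.62% in wild type against 8.25% and 7.44% in knockout. Trbv1 held a mean of 7.06% in wild type against 8.90% in knockout, but its wild-type libraries stood far apart, at 8.60% and 5.52%. Of the 24 segments, 7 had both knockout shares under both wild-type shares, 6 had both above and 11 overlapped. For the levels of all tested genes, 70.0% did not overlap.

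**Figure D3:**
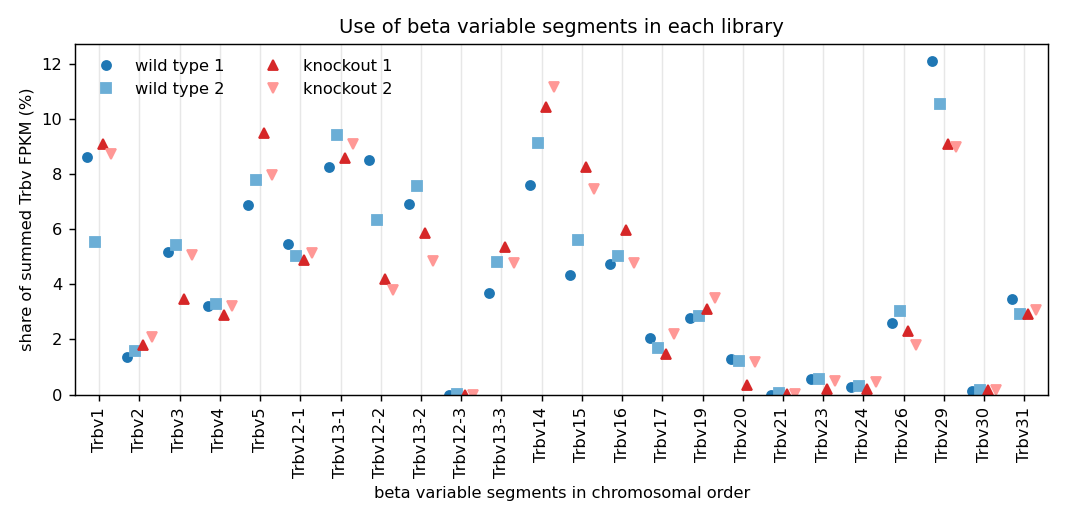
Share of each of the 24 beta V segments in the summed beta V FPKM of its library (%), in chromosomal order, 1 symbol per library. Trbv12-2 and Trbv29 are lower and Trbv14 and Trbv15 higher in both knockout libraries, and the wild-type libraries themselves differ at Trbv1 (8.60% and 5.52%).

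To test the shares, the limma fit was repeated with every library scaled to the same summed beta V level, an alternative chosen after seeing the data. That sum holds the tested segments and is fixed by construction, so lower shares of some segments raise the shares of others. Trbv12-2 was then lower, by a fold change of -0.87 (SE 0.16) with a limma adjusted p of 0.0196, and Trbv15 was higher, by 0.66 (SE 0.15) with 0.0308. The other 20 tested segments did not pass, Trbv29 among them (-0.32, limma adjusted p 0.0782). Under this scaling 25.5% of all tested genes were called higher and 6.54% lower, and the median fold change of all tested genes was 0.20 beside the 0.66 of Trbv15. As deposited, Trbv15 did not pass, with a fold change of 0.47 and a limma adjusted p of 0.104.

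How evenly the segments were used differed little. The 5 highest segments held 45.1% and 44.5% of the beta V level in wild type against 46.7% and 45.9% in knockout, without overlap. The effective number of beta V segments is the number of equally used segments that would give the same sum of squared shares (inverse Simpson index). It was 14.9 and 15.4 in wild type against 14.4 and 15.0 in knockout, and the genotypes overlapped. The distance between libraries was larger between genotypes than within them. Half-summed absolute differences of the shares came to 8.27% for the wild-type pair and 6.49% for the knockout pair, and to 9.30%, 11.1%, 11.7% and 13.9% for the 4 pairs of different genotype. The nearest pair across genotypes was only slightly farther apart than the wild-type pair.

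**Figure D4:**
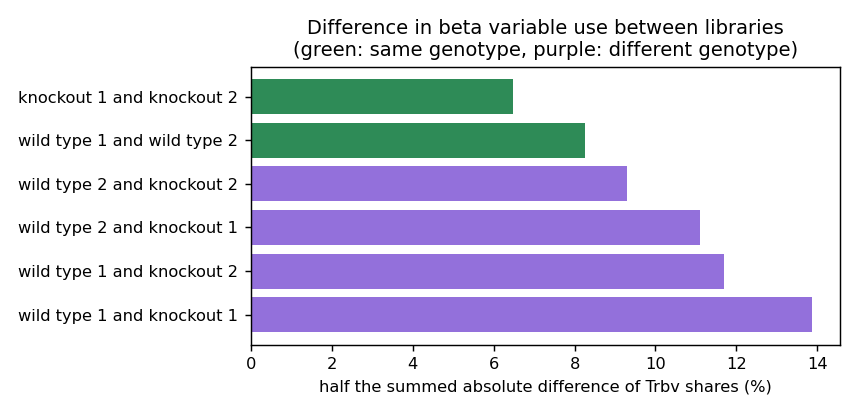
Distance in beta V use between each of the 6 pairs of libraries, as the summed absolute difference of the 24 shares divided by its maximum (%), with pairs of the same genotype in green. Same-genotype pairs lie at 6.49% and 8.27% and different-genotype pairs at 9.30% to 13.9%.

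V segments are short, and for short transcripts FPKM depends on how long the sequenced fragments were. The steps between low values were sharpest with a mean fragment length of 245 and 260 nt in the wild-type libraries and 270 nt in both knockout libraries. A 350-nt segment then offered 106 and 92.2 start positions in wild type against 83.2 in each knockout library, and a single fragment was worth 0.439 and 0.534 FPKM in wild type against 0.530 and 0.514 in knockout. At 3000 nt the knockout libraries kept 0.991 of the effective length of wild-type library 1, against 0.781 at 350 nt. The lengths and scales were fitted to the same values, so part of the agreement is built in.

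**Figure D5:**
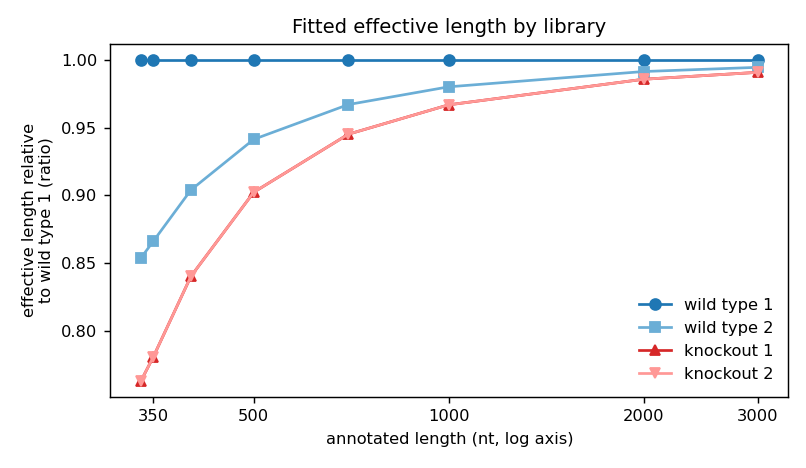
Fitted effective length relative to wild-type library 1 (ratio) against annotated transcript length (nt, log axis) for each library. At 350 nt, about the length of a V segment, the ratio is 0.866 in wild-type library 2 and 0.781 in both knockout libraries, and at 3000 nt it is 0.991 or more in all of them.

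Recounted as estimated fragments, the beta V segments held 3828 and 3567 fragments in wild type against 3123 and 3270 in knockout. The genotypes did not overlap, but these numbers are scaled neither to library size nor to effective length, which differed between the libraries. Per 100 beta constant fragments, the beta V fragments numbered 24.4 and 29.1 in wild type against 29.3 and 28.7 in knockout, and the genotypes overlapped. Trbv12-2 fell from 324 and 227 fragments to 129 and 120. As a share of beta V fragments it was 8.46% (95% Wilson interval 7.62 to 9.39) and 6.36% (5.61 to 7.21) in wild type against 4.13% (3.49 to 4.89) and 3.67% (3.08 to 4.37) in knockout. Neither knockout interval reached a wild-type interval, but the wild-type intervals did not overlap each other either, and such intervals cover counting error only. Trbv15 was 3.84% (3.28 to 4.50) and 4.96% (4.30 to 5.72) in wild type against 7.11% (6.26 to 8.06) and 6.27% (5.49 to 7.15) in knockout. With 5.49 as the lowest knockout bound and 5.72 as the highest wild-type bound, those intervals touched.

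On the fragment scale, which does not divide by length, Trbv1 or Trbv3 held the highest share. With equal summed beta V fragments, limma called Trbv12-2 lower (-0.82, adjusted p 0.00674), Trbv13-2 lower (-0.47, adjusted p 0.0456) and Trbv15 higher (0.55, adjusted p 0.0297), while 49.4% of all tested genes were called higher and 6.98% lower. Shares of 22 segments differed by more than counting noise within a genotype too, on these estimated numbers, with chi-square divided by its 21 degrees of freedom at 3.28 in the wild-type pair and 2.61 in the knockout pair. Across genotypes this ratio was 5.38 to 9.05.

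Other genes of the receptor were read from lists drawn up from general knowledge. Of 5 tested genes for CD3 chains and receptor assembly, Trac was higher, as described, and Cd3d, a CD3 chain, was lower at 226 and 224 FPKM in wild type against 171 and 177 in knockout (limma adjusted p 0.0201). Of 8 tested genes for V(D)J recombination and end joining, 1 was higher. That gene was Hmgb1, a DNA-bending cofactor of the RAG recombinase, at 275 and 308 FPKM in wild type against 388 and 470 in knockout (limma adjusted p 0.0267). Xrcc4, an end-joining factor, came next with an adjusted p of 0.0522 by limma. Rag1 was at most 0.0147 FPKM and Dntt, the enzyme that adds bases at the junctions, at most 0.385.

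Lists of markers were also read for lymphocytes that could contribute gamma and delta transcripts. The list for gamma delta T cells summed to 127 and 132 FPKM in wild type against 72.2 and 71.5 in knockout, and of its 4 tested members 2 were lower and 2 higher. Fcer1g and Cd27, which other lymphocytes express too, made up 92.5% and 93.0% of that sum in wild type against 83.7% and 83.9% in knockout. Fcer1g, a signalling adaptor also found in NK and innate-like T cells, measured 56.2 and 63.8 FPKM in wild type against 10.9 and 13.0 in knockout (limma adjusted p 0.000951). Maf, a transcription factor, was higher at 9.57 and 9.90 FPKM against 6.17 and 6.38 (limma adjusted p 0.0160). Cd163l1, a scavenger receptor of gamma delta T cells, was also higher, at 1.78 and 1.34 FPKM against 0.597 and 0.310 (limma adjusted p 0.0324). The untested markers of the list were under 1 FPKM in every library, with Sox13 at most 0.241 FPKM, Il17a 0.958 and 0.758 in wild type against 0 in both knockout libraries, and Il23r at most 0.208 in wild type and likewise 0.

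The NKT list summed to 27.2 and 28.3 FPKM in wild type against 17.1 and 16.8 in knockout, with 1 of 3 tested members lower, and Cd1d1 second by p (limma adjusted p 0.0920). The NK list summed to 111 and 104 in wild type against 80.1 and 85.4 in knockout, with 2 of 4 lower. Eomes, which CD8 T cells also express and which did not pass (limma adjusted p 0.263), made up 76.9% to 92.7% of that sum. Klrb1c, the NK1.1 antigen and a member of both, measured 14.7 and 14.4 FPKM in wild type against 3.95 and 3.81 in knockout (limma adjusted p 0.00126). Tyrobp, an NK signalling adaptor, measured 5.30 and 7.92 in wild type against 0.938 and 2.33 in knockout (limma adjusted p 0.0209). Ncr1, the defining NK receptor, was at most 0.0821 FPKM in wild type against 0 in both knockout libraries, and Zbtb16, the NKT regulator, at most 0.501. Their part in the lower gamma and delta levels was not tested.

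Markers of the main T cell classes gave 1 call. Of the CD4 list, Foxp3, the regulator of regulatory T cells, was lower at 5.40 and 4.65 FPKM in wild type against 0.128 and 0.228 in knockout (limma adjusted p 0.00171), with Zbtb7b next (0.0917). Neither Cd8b1 nor Cd8a passed, with limma adjusted p-values of 0.0756 and 0.130. Whether the beta V shares differed between CD4 and CD8 cells cannot be told from RNA of the mixed cells. Cd79b, Cd68 and Pecam1, the single tested members of the lists for B cells, myeloid cells and fibroblasts with endothelium, did not pass either, with limma adjusted p-values of 0.483, 0.580 and 0.278.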

How the data were processed

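RNA was taken up in Trizol and made into libraries with an NEBNext Ultra kit for RNA, per the labels' protocols. The authors deposited FPKM values for 21146 genes in 4 libraries. Per the submitters' processing notes, HISAT, Cuffnorm and the build GRCm38 were used. Versions, annotation, strand and scaling option are not given in the sources used here, so the scale of about 20300000 to 23400000 fragments need not equal the sequencing depth. Symbols came from GENCODE M21 for 21028 gene IDs, and 118 had no match.

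Values were fitted as log2(FPKM + 1) with limma 3.58.1 in R 4.3.3 (trend, empirical Bayes, genotype only, residual degrees of freedom 2, prior 3.39). Shares, distances and intervals were computed with Python 3.11.15, pandas 2.3.3 and scipy 1.17.1, and plots with matplotlib 3.10.9. The limma script was tested on simulated data with known changes. Fragment numbers were estimated from the steps between low values, fitting a mean fragment length (SD fixed at 40 nt) and a scale per library. Of the low values, 92.0% to 93.1% lay within 0.1 of a whole fragment, and 88.6% to 93.9% for genes under 500 nt. For genes with several transcripts the longest was used. These estimates and the scaling to equal summed beta V levels were added after seeing the data. No count model was run on these estimates, since they depend on fitted fragment lengths and on annotated transcript lengths.

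Named genes were Map4k1, Trac, every constant gene, beta V segments with at least 5% of the beta V level in a library, members past the threshold, gamma or delta V segments reaching 1 FPKM, and per list the 2 tested genes with the lowest p. Segments outside this rule (Trbv20, Trbv12-3, Trbv21, Trdv4, Tcrg-V3, Tcrg-V6) and marker genes quoted for their level were chosen after their values were seen. The members and lists were chosen with earlier results of these data known. Alternatives covered the pseudocount, filter, scaling, trend, replicate block and each library left out.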

Additional observations from a re-analysis of the deposited data

How the results depend on the processing

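The lower levels of Tcrg-C2, Trgv2 and Trbv12-2 passed in each of the 16 alternatives run, with limma adjusted p-values of at most 0.0352, 0.0324 and 0.0458, and of 12 called genes Trbc2 alone changed sign in an alternative. Of 12 named genes that were not called, 9 changed sign in at least 1 alternative, with limma adjusted p-values of at least 0.125. Of 304 values for the 19 named genes other than beta and gamma constant genes, 252 kept their side of the threshold, 39 lost it and 13 gained it.

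Genes past the threshold numbered 3390, and 1231 without a filter, 6132 with equal summed beta constant levels and 6673 with equal summed beta V fragments, and 579 to 3235 when a library was left out. Segments past it numbered 10, and 4 without a filter, 5 with equal summed beta V levels, 6 with equal summed beta V fragments and 4 to 10 when a library was left out.

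For Tcrg-C1, the fold change of -0.41 failed without a filter (-0.41), without the trend (-0.41) and with the replicate block (-0.41, adjusted p 0.0685), with equal FPKM totals (-0.27), equal summed beta constant levels (-0.032), estimated fragments scaled to library size (-0.43), equal summed beta V levels (-0.24) and equal summed beta V fragments (-0.12), and ranged from -0.53 to -0.30 with a library left out. Tcrg-C4 failed without a filter (-1.25). For Trbc1 the fold change passed in estimated fragments scaled to library size (-0.48) and ranged from -0.62 to -0.25 with a library left out. For Trbc2 it failed without a filter (-0.41), with quantile normalization (-0.23), equal FPKM totals (-0.25), equal summed beta V levels (-0.22) and equal summed beta V fragments (-0.11), ranged from -0.48 to -0.34 with a library left out, and reversed to 0.009 with equal summed beta constant levels, which fixes that sum by construction. Other causes were not tested. The summed gamma constant level (log2 ratio -1.05) was -0.90 with equal FPKM totals and -1.14 to -0.96 with a library left out. The knockout minus wild-type difference in the top beta V share, -0.53 percentage points, was 1.60 in estimated fragments.

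Same-numbered libraries did not deviate together (correlation -0.0321), so the numbers are not shown to pair libraries. With the replicate block 2801 genes and 8 segments passed. Scaling to equal FPKM totals moved the median of all tested genes from 0.04 to 0.18, to equal summed beta V levels 0.20, in fragments 0.35. Of all tested genes 1839 were higher and 1551 lower as deposited, and 3411 and 1120 with equal totals, 1527 and 1726 with median-of-ratios scaling. Delta V segments, Tcrg-V1 and Tcrg-V4 rest on too few fragments for a finer statement.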
